A study of Mus musculus with 12 samples.

Results

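Mitosis and spindle genes, 40 in all, were followed through LSK cells that 3 treatments had brought into the blood and LSK cells that had stayed in the bone marrow. LSK cells carry Sca-1 and Kit but no lineage markers, and they hold the blood stem cells and early multipotent progenitors. The 40 genes were chosen by name, with earlier results of these data known. Each was found in the gene name column of the scanner output, and where a gene had several probes the one that was brightest on average stood for it. The array carried 30954 named genes, and 23763 of them, among them 39 of the 40, were tested because 1 group or more had all 3 of its arrays well above background for that probe. Cenpf was above background on 4 of 12 arrays and was not tested. RNA of male DBA2/J mice was hybridised to 12 arrays with 1 dye, 3 for each of 4 groups, after amplification of the sorted cells' RNA. G-CSF blood came from mice given the cytokine G-CSF for 5 days in 9 injections. AMD3100 blood was taken 1 hour after AMD3100, which blocks the chemokine receptor CXCR4. CWHM-823+tGro-b blood came from mice given a blocker of the integrin VLA4 with a truncated form of Gro-beta, which activates CXCR2; no time is stated for it. PBS marrow came from mice injected with PBS, the saline control. No group held blood of untreated mice, so treatment and tissue cannot be told apart, and the labels do not say that replicate arrays stand for different mice, so the p-values reflect no more than the spread among these arrays. One array of each group lay on each of 3 slides, numbered as the replicates.

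Mitosis needs proteins that cells make mainly in G2 and M phase. Cyclins A and B with Cdk1 drive entry into mitosis, Plk1 and the Aurora kinases build the spindle, the checkpoint kinases hold the anaphase-promoting complex (APC/C) until every chromosome is attached, and Prc1 and its partners organise the central spindle along which the cell divides. Their genes are shut off together in resting cells by the DREAM complex and switched on together by B-Myb and FoxM1, largely through a promoter element called CHR (cell cycle genes homology region) beside CCAAT boxes bound by NF-Y. Most marrow stem cells rest, while the multipotent progenitors of the LSK gate hold many cycling cells.

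Promoters are shown because this element is the sequence feature that genes of mitosis are best known to share. Of the 40, 34 had an entry in the RefSeq promoter table (GRCm38.p6), which runs from 250 bases before to 50 after a gene's start; Ccna2, Depdc1b, Aurkb, Cdc25c, Kif20a and Tpx2 had none. The CHR form TTTGAA, read on both strands, lay in 26 of the 34 (76.5%) and in 20.2% of all 27025 genes with an entry. The form TTCGAA lay in 3 of the 34 (8.82%) and in 1.8% of all genes, and CCAAT lay in 26 of the 34 (76.5%) and in 41.1% of all genes. A CHR of either form together with a CCAAT was held by 23 of the 34 (67.6%) and by 8.61% of all genes. Printed next are 5 of the promoters: those of the 5 members with the smallest p after AMD3100, among members that passed there and have a CHR and a CCAAT from 130 bases before to 20 after the start. They are Spag5 (chr11:78301461-78301610, plus strand), Prc1 (the first of its entries, chr7:80294321-80294470, plus strand), Aspm (chr1:139454643-139454792, plus strand), Ube2c (chr2:164769799-164769948, plus strand) and Cdc20 (chr4:118437324-118437473, minus strand). Capitals mark CCAAT or its reverse complement ATTGG, and the CHR TTTGAA or its reverse complement TTCAAA.
Spag5: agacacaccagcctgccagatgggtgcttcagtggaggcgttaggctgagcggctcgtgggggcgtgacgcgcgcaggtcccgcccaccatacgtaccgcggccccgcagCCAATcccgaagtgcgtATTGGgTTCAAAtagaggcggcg
Prc1: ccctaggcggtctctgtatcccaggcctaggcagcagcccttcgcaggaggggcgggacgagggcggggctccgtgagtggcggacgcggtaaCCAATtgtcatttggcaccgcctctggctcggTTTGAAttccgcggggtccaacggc
Aspm: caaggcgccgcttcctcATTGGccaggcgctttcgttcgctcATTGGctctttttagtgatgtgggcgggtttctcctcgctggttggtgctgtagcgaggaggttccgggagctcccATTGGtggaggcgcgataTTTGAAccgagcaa
Ube2c: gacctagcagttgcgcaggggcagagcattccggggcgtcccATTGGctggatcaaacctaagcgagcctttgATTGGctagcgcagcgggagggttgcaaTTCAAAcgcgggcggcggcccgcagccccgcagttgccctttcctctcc
Cdc20: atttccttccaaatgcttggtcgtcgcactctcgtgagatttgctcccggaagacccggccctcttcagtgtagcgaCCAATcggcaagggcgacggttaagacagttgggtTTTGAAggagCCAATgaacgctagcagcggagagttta
In Spag5 and Aspm the CHR begins 4 and 7 bases into the transcript, and in Prc1, Cdc20 and Ube2c it begins 5, 18 and 29 bases before the start. Among members with an entry that passed as lower after AMD3100, 8 of 11 (72.7%) held both motifs, and among the other members 15 of 23 (65.2%) did. A match is a description of the sequence, not evidence of binding.

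**Figure D1:**
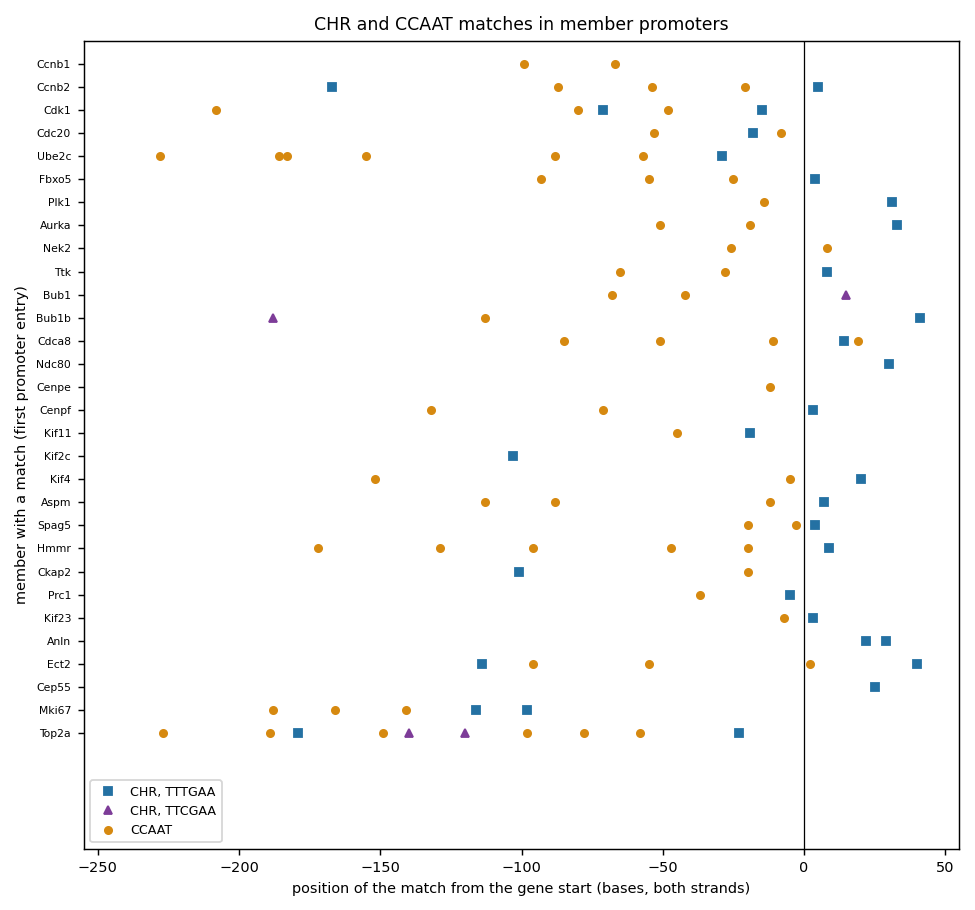
Positions of CHR and CCAAT matches in the first promoter entry of the 30 members with any match, in bases from the gene start (x axis), 1 member per line in order of role. Most CCAAT matches lie before the start, and most TTTGAA matches lie close to it, on either side.

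All values below are levels or differences on the log2 scale: to get a level, the 75th percentile of an array (control spots left out) was subtracted from its log2 signals, so a level of 0 equals that percentile on its own array, and levels of different genes are not compared. The 5 LSK markers Kit, Ly6a, Cd34, Flt3 and Procr were above background on every array. Their summed linear level was 22.3 to 26.6 in G-CSF blood, 20.2 to 26.7 in AMD3100 blood, 22.8 to 31.5 in CWHM-823+tGro-b blood and 21.9 to 32.6 in PBS marrow. Within that list Ly6a (Sca-1) had levels of 0.68 to 0.86 in G-CSF blood, -1.31 to -0.21 in AMD3100 blood, -1.29 to -0.17 in CWHM-823+tGro-b blood and -1.02 to -0.69 in PBS marrow. Procr had levels of -0.32 to -0.12 in G-CSF blood, -1.93 to -0.69 in AMD3100 blood, -0.68 to 0.08 in CWHM-823+tGro-b blood and -0.22 to 0.83 in PBS marrow. Ly6a was thus highest in G-CSF blood, and every AMD3100 array lay below marrow for Procr. Flt3 was lower on every G-CSF array (1.46 to 1.9) than on any marrow array (2.23 to 3.45). Cd34 was higher in G-CSF blood (2.72 to 3.18) and CWHM-823+tGro-b blood (2.71 to 3.20) than in PBS marrow (2.18 to 2.63). Kit overlapped marrow in each blood group. The 75th percentile signal was 2120 to 2630 in G-CSF blood, 1080 to 1500 in AMD3100 blood, 1820 to 1920 in CWHM-823+tGro-b blood and 1560 to 2360 in PBS marrow, lowest in AMD3100 blood. Markers of other cells also differed between the groups, and the part of the signal and of these cells in the results was not tested. The 10 neutrophil markers summed to 2.16 to 2.57 in G-CSF blood, 2.52 to 4.21 in AMD3100 blood and 1.93 to 2.84 in CWHM-823+tGro-b blood, and to 2.95, 2.6 and 33.4 in PBS marrow; S100a8 was above background on 0 of 9 blood arrays and Mmp9 on 0 of 12 arrays. PBS marrow array 3 thus stood apart, and counts without it are given. The 9 B cell markers, 7 to 9 of them above background, summed to 4.8 to 5.26 in G-CSF blood, 8.41 to 10.2 in AMD3100 blood, 9.21 to 12.2 in CWHM-823+tGro-b blood and 5.09 to 5.56 in PBS marrow. The 7 mast cell and basophil markers, 5 or 6 of them above background and Ms4a2 on 0 arrays, summed to 9.06 to 11.1 in G-CSF blood, 7.6 to 17.3 in AMD3100 blood, 8.4 to 11.2 in CWHM-823+tGro-b blood and 7.53 to 7.71 in PBS marrow; their median level was -0.22 to 0.50, 0.07 to 0.16, 0.33 to 1.13 and -1.81 to -1.50 in the same groups, higher on every blood array than on any marrow array. Erythroid, monocyte and T cell sums overlapped between marrow and each blood group. Megakaryocyte sums were 3.41 to 4.41 in G-CSF blood, 4.29 to 4.9 in AMD3100 blood, 4.7 to 5.49 in CWHM-823+tGro-b blood and 4.9 to 6.35 in PBS marrow. The erythroid median level was -2.62 to -2.20, -1.90 to -1.58, -1.49 to -0.03 and -1.32 to -0.50 in the same groups. Of that list, Hba-a1 was higher in G-CSF blood (2.73 to 2.85) and CWHM-823+tGro-b blood (3.18 to 3.92) than in PBS marrow (-1.32 to 0.02). Klf1, Epor, Car1 and Rhag went the other way in G-CSF blood, where every array lay below every marrow array. Rhag was not above background on any G-CSF array. Gata1, Tfrc, Hbb-b1 and Ermap overlapped marrow in G-CSF blood. Epor was lower in G-CSF blood (-2.88 to -2.25) and CWHM-823+tGro-b blood (-2.55 to -1.93) than in PBS marrow (-1.53 to -0.94). Tfrc was higher on every CWHM-823+tGro-b array than on any marrow array.

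Where a member differed from marrow past the threshold, it was lower in blood LSK cells. After AMD3100, 13 of 39 members fell and 0 rose, against 0.909% and 0.505% of all genes tested; the 13 were Ccna2, Cdc20, Ube2c, Fbxo5, Melk, Bub1b, Birc5, Aspm, Nusap1, Spag5, Prc1, Depdc1b and Top2a. After G-CSF, 2 fell (Nusap1 and Kif23) and 0 rose, against 0.610% and 1.14% of all genes. After CWHM-823+tGro-b, 1 fell (Spag5) and 0 rose, against 0.0379% and 0.337% of all genes. No member had an increase with an unadjusted p below 0.05 in these comparisons, against 7.81%, 8.63% and 2.45% of all genes after G-CSF, AMD3100 and CWHM-823+tGro-b, whereas 16, 27 and 24 members had such a decrease, against 12.1%, 9.94% and 3.22% of all genes. With the slide as a block in the fit, 12, 25 and 6 members fell after G-CSF, AMD3100 and CWHM-823+tGro-b, against 12.3%, 7.59% and 0.324% of all genes; 0 rose, against 7.69%, 5.49% and 0.766% of all genes. The members' median log2 fold change was -0.65 after G-CSF, -1.23 after AMD3100 and -0.90 after CWHM-823+tGro-b, against -0.27, 0.11 and -0.06 over all genes. Differences were negative for 39, 35 and 37 of the 39, against 15302, 10176 and 13437 of all 23763 genes. In bulk RNA, fewer cycling cells in the gate and less of these RNAs in each cell cannot be told apart. The 3 comparisons share the same 3 marrow arrays.

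The counts rest on few arrays and on the filter. Shares of all genes that passed in the fits below are not given here. The member counts alone therefore do not separate a loss of member calls from a loss over all genes. Without PBS marrow array 3, the one with the high neutrophil sum, 0 members fell after G-CSF, 7 after AMD3100 and 0 after CWHM-823+tGro-b, with medians of -0.59, -1.19 and -0.85. Without PBS marrow array 2, 0, 1 and 0 fell, the 1 being Ccna2. Without PBS marrow array 1, 1, 4 and 0 fell. The count after AMD3100 was 6 without AMD3100 array 1 and 7 without AMD3100 array 2. The count after G-CSF was 0 without G-CSF array 1 or 3 and 1 without G-CSF array 2, AMD3100 array 3, or CWHM-823+tGro-b array 2 or 3, which share in the estimate of the spread. After CWHM-823+tGro-b it was 0 without any 1 of its own arrays, G-CSF array 1 or AMD3100 array 3, and 2 without AMD3100 array 2. Of the 39, 29 were above background on all 12 arrays, while Melk, Ttk, Bub1, Bub1b, Aurkb, Nuf2, Aspm, Spag5, Anln and Top2a passed the filter with dim arrays in some groups. Of these, Anln met the filter through marrow alone, where it was highest, so the filter favoured a fall in blood. It stays in the counts over the 39, but did not pass against marrow without the slide block. It is among the members counted as lower after AMD3100 with that block. For AMD3100 and CWHM-823+tGro-b it is also among the decreases at an unadjusted p below 0.05. The same holds for the members below marrow on all 3 slides and those not overlapping marrow. Each of these counts therefore includes 1 member that the filter favoured. In AMD3100 blood, Ttk and Bub1 were above background on 1 of 3 arrays and Bub1b, Spag5 and Top2a on 2 of 3, so their differences there include signals that are not well above background. In a fit of the genes above background on every array, 9 of 29 members fell after AMD3100, with a median of -0.91. With no filter, all 40 differences were negative after G-CSF, 35 after AMD3100 and 38 after CWHM-823+tGro-b; Cenpf was above background on 1 G-CSF, 1 AMD3100, 0 CWHM-823+tGro-b and 2 marrow arrays, so no value is given for it.

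**Figure D2:**
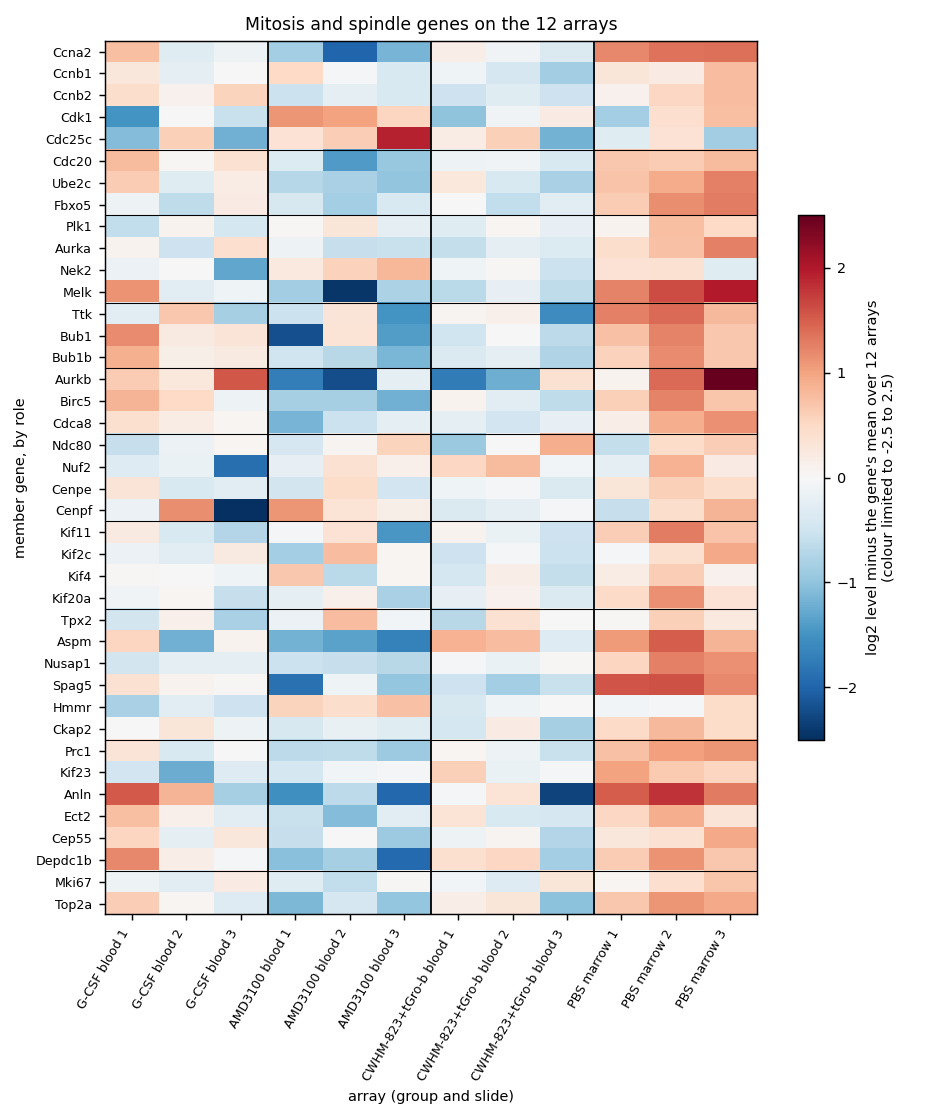
Level of the 40 members on each of the 12 arrays, as the log2 level minus the gene's mean over all arrays (colour), with rows ordered by role and columns by group and slide. PBS marrow arrays are mostly red and AMD3100 blood arrays mostly blue, while Cdk1, Cdc25c, Nek2 and Hmmr run the other way in AMD3100 blood. Each gene is shown by its brightest probe, and the other Cdk1 probes were lower in AMD3100 blood than in marrow.

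**Figure D3:**
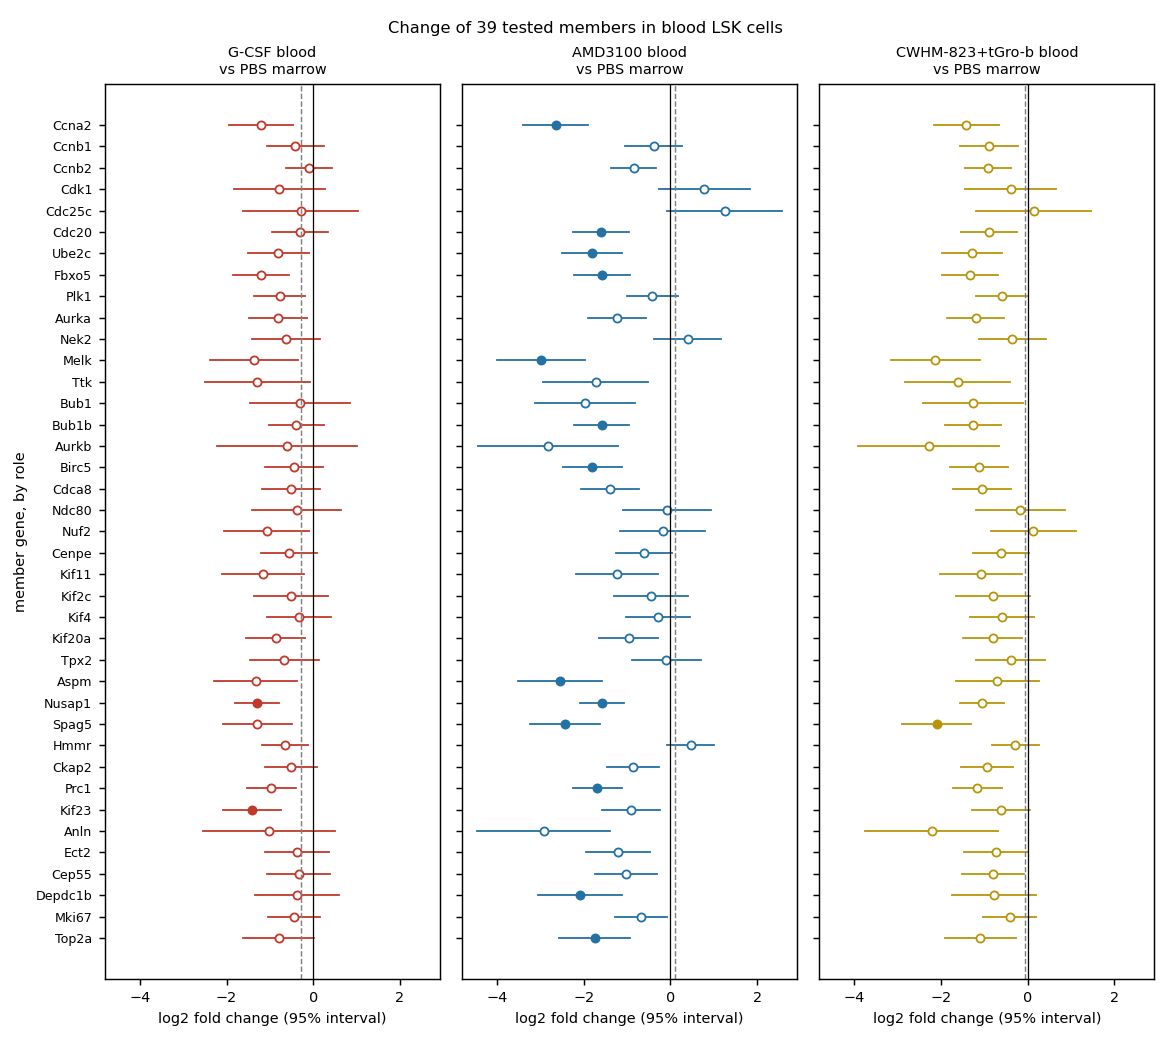
Log2 fold change of the 39 tested members against PBS marrow with its 95% interval, for G-CSF blood, AMD3100 blood and CWHM-823+tGro-b blood from left to right. Filled points passed an adjusted p below 0.05 (2, 13 and 1 members), open points did not, and the dashed line is the median over all genes.

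The cyclin and Cdk1 group showed the widest range of the roles after AMD3100, from Ccna2 at -2.64 to Cdc25c, a phosphatase that activates Cdk1, at 1.25 (adjusted p = 0.297). Cyclin A2 (Ccna2), which partners Cdk2 in S phase and Cdk1 in G2, had levels of -0.59, -1.65 and -1.47 in G-CSF blood, -2.19, -3.32 and -2.51 in AMD3100 blood, -1.19, -1.43 and -1.71 in CWHM-823+tGro-b blood, and -0.14, 0.01 and 0.03 in PBS marrow. Every blood array lay below every marrow array, and the AMD3100 arrays lay below all other arrays. The fall passed after AMD3100 (-2.64 ± 0.34, adjusted p = 0.00444), but not after G-CSF (-1.21 ± 0.34, adjusted p = 0.106; with the slide block it passes, adjusted p = 0.0239) or CWHM-823+tGro-b (-1.41 ± 0.34, adjusted p = 0.171). Cyclin B2 (Ccnb2), a partner of Cdk1 at the Golgi, had levels of -0.06, -0.37 and 0.06 in G-CSF blood, -1.03, -0.72 and -0.87 in AMD3100 blood, -1.0, -0.79 and -1.01 in CWHM-823+tGro-b blood, and -0.38, 0.03 and 0.29 in PBS marrow. The AMD3100 and CWHM-823+tGro-b arrays lay below all marrow arrays, and the G-CSF arrays lay among them. Its difference was -0.85 ± 0.24 (adjusted p = 0.0997) after AMD3100, which passes with the slide block (adjusted p = 0.0274). It was -0.10 ± 0.24 (adjusted p = 0.788) after G-CSF and -0.91 ± 0.24 (adjusted p = 0.222) after CWHM-823+tGro-b.

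Cyclin B1 (Ccnb1) and Cdk1, the kinase pair that starts mitosis, were each read by 3 probes, and the probes disagreed. The first 30 bases of each 60-base probe are shown because the result depends on which one is read. Their mm9 positions come from the scanner files; no gene annotation of that build was used. Ccnb1 probes 1 and 2 lie at chr7:49361734-49361793 and chr7:49362048-49362107, and probe 3 at chr13:101548722-101548781, on the chromosome that the RefSeq table gives for Ccnb1. Probes 1 and 2 are thus placed on another chromosome than the gene, and whether they read Ccnb1 or a copy of it was not tested. The Cdk1 probes lie at chr10:68799513-68799572, chr10:68801053-68801112 and chr10:68801072-68801131, and all 6 probes are placed on the minus strand; capitals mark the bases that Cdk1 probes 2 and 3 share.
Ccnb1 probe 1: tatgaggagatgtaccctccagaaataggt
Ccnb1 probe 2: tgagtgatgtagacgcagatgatggagctg
Ccnb1 probe 3: gccacctggaaaagaatcctgtctcatttg
Cdk1 probe 1: atacactaaaaatttgggtagccaggaggt
Cdk1 probe 2: AACTTAATTAACATGTAAATATTATTCCAT
Cdk1 probe 3: ttcttaatttcctacgtatAACTTAATTAA
The brightest Ccnb1 probe, probe 1, read 1.47, 0.94 and 1.17 in G-CSF blood, 1.69, 1.16 and 0.81 in AMD3100 blood, 1.07, 0.76 and 0.32 in CWHM-823+tGro-b blood, and 1.49, 1.38 and 1.95 in PBS marrow. Marrow and blood overlapped for G-CSF and AMD3100, and the differences were -0.41 ± 0.30 (adjusted p = 0.41), -0.39 ± 0.30 (adjusted p = 0.507) and, after CWHM-823+tGro-b, -0.89 ± 0.30 (adjusted p = 0.516). Probe 3 read -0.42, -1.47 and -1.03 in G-CSF blood, -1.51, -2.13 and -2.66 in AMD3100 blood, -0.65, -1.46 and -1.16 in CWHM-823+tGro-b blood, and -0.30, 0.14 and 0.26 in PBS marrow. Every AMD3100 array lay below every other array here, and the fall after AMD3100 passed in a fit of all probes (-2.13 ± 0.36, adjusted p = 0.0159).

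The brightest Cdk1 probe, probe 1, read -3.10, -1.62 and -2.16 in G-CSF blood, -0.51, -0.60 and -1.08 in AMD3100 blood, -2.61, -1.70 and -1.40 in CWHM-823+tGro-b blood, and -2.47, -1.20 and -0.87 in PBS marrow. Its differences were -0.78 ± 0.48 (adjusted p = 0.349) after G-CSF, 0.78 ± 0.48 (adjusted p = 0.406) after AMD3100 and -0.39 ± 0.48 (adjusted p = 1) after CWHM-823+tGro-b. Probe 3 read -1.50, -1.46 and -0.60 in G-CSF blood, -5.58, -4.51 and -1.88 in AMD3100 blood, -1.93, -1.61 and -1.08 in CWHM-823+tGro-b blood, and -1.28, -0.14 and 0.52 in PBS marrow. On probe 1 the AMD3100 arrays were the highest of the blood arrays, and on probe 3 AMD3100 arrays 1 and 2 were the lowest of all 12. In the fit of all probes, the difference after AMD3100 was -2.55 ± 0.61 (adjusted p = 0.0606; 0.00263 with the slide block) on probe 2 and -3.69 ± 0.76 (adjusted p = 0.0362) on probe 3, against 0.78 ± 0.48 on probe 1. In AMD3100 blood probe 1 was above background on 3 arrays, probe 2 on 2 and probe 3 on 1, so the sizes on probes 2 and 3 rest in part on signals that are not well above background. No direction can therefore be given for Cdk1 after AMD3100. The other 6 members with more than 1 tested probe (Ube2c, Birc5, Cdca8, Nuf2, Cep55 and Mki67) had differences of 1 sign on all their tested probes after AMD3100. After CWHM-823+tGro-b the signs differed for Nuf2, and after G-CSF for Birc5. In the fit of all probes, Ccnb1 (probe 3), Cdk1 (probe 3) and Cdca8 also passed as lower after AMD3100, and no member passed as higher. The pass of Cdk1 probe 3 gives Cdk1 no direction, for the reason above. A gene with several probes has more chances to pass when any of them counts, and no share over all genes was computed for that rule. Without probes placed on another chromosome, an alternative added after seeing the data, Ccnb1 was read by probe 3 and 14 members fell after AMD3100.

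**Figure D4:**
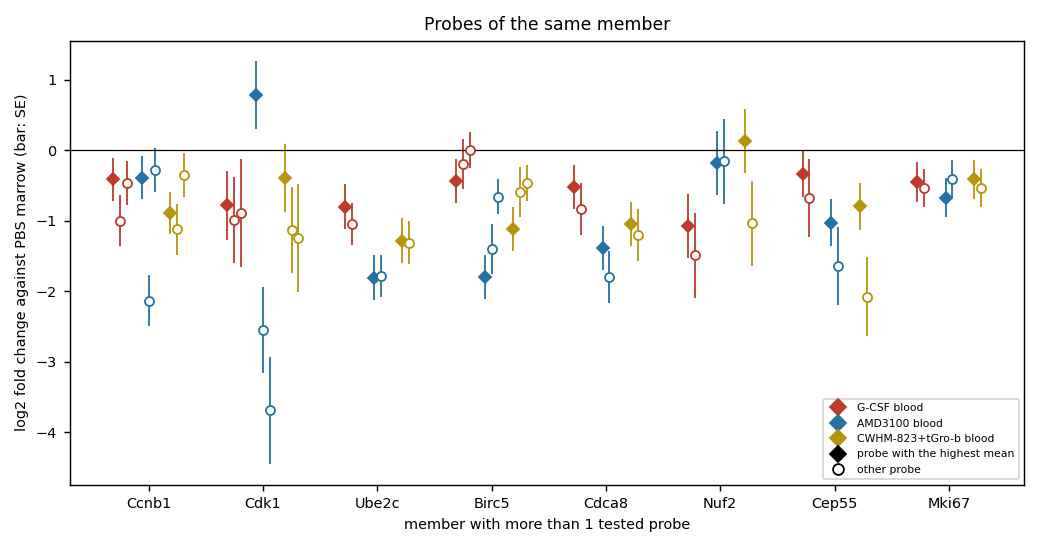
Log2 fold change against PBS marrow, with its standard error, for every tested probe of the 8 members with more than 1, with G-CSF blood, AMD3100 blood and CWHM-823+tGro-b blood from left to right within a member. Diamonds mark the probe with the highest mean; the AMD3100 values of Ccnb1 spread from -0.28 to -2.13 and those of Cdk1 from 0.78 to -3.69, the lowest being the probe above background on 1 AMD3100 array.

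All 3 genes of the anaphase-promoting complex group fell after AMD3100. Cdc20, the activator that directs the complex to securin and cyclin B, had levels of 2.44, 1.68 and 2.02 in G-CSF blood, 1.31, 0.23 and 0.71 in AMD3100 blood, 1.53, 1.56 and 1.26 in CWHM-823+tGro-b blood, and 2.31, 2.28 and 2.44 in PBS marrow. Each AMD3100 and CWHM-823+tGro-b array lay below each marrow array, and G-CSF blood array 1 was as high as marrow. Its differences were -1.60 ± 0.30 (adjusted p = 0.0277) after AMD3100, -0.30 ± 0.30 (adjusted p = 0.526) after G-CSF and -0.90 ± 0.30 (adjusted p = 0.485) after CWHM-823+tGro-b. Ube2c, the ubiquitin-conjugating enzyme of the complex, read 1.48, 0.53 and 1.01 in G-CSF blood, 0.12, 0.02 and -0.14 in AMD3100 blood, 1.09, 0.46 and 0.03 in CWHM-823+tGro-b blood, and 1.56, 1.77 and 2.11 in PBS marrow. No blood array reached the marrow levels, and the fall passed after AMD3100 (-1.81 ± 0.32, adjusted p = 0.0206) and not after G-CSF (-0.80 ± 0.32, adjusted p = 0.206) or CWHM-823+tGro-b (-1.28 ± 0.32, adjusted p = 0.189). Fbxo5 (Emi1), which inhibits the complex before mitosis, fell after AMD3100 (-1.57 ± 0.30, adjusted p = 0.0286), and its differences were -1.22 ± 0.30 (adjusted p = 0.0648) after G-CSF and -1.32 ± 0.30 (adjusted p = 0.118) after CWHM-823+tGro-b (adjusted p = 0.0164 and adjusted p = 0.0368 with the slide block, both passing).

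Of the 4 mitotic kinases, Melk fell after AMD3100 and the others did not pass. Melk, a kinase high in cycling progenitors, had levels of -2.16, -3.54 and -3.39 in G-CSF blood, -4.16, -5.72 and -4.08 in AMD3100 blood, -3.95, -3.50 and -3.92 in CWHM-823+tGro-b blood, and -2.04, -1.65 and -1.30 in PBS marrow. Its probe was above background on every G-CSF and marrow array, 0 AMD3100 arrays and 1 CWHM-823+tGro-b array, so its level after AMD3100 is a bound: it was at least 3.73-fold lower than in marrow (adjusted p = 0.0119). A bound sets each dim array at the lowest signal that counted as above background on it, or at the probe's own signal if higher. The p-values printed beside a bound are those of the measured difference. Plk1, the Polo-like kinase of centrosome maturation and mitotic exit, read -0.93, -0.23 and -0.76 in G-CSF blood, -0.29, -0.01 and -0.53 in AMD3100 blood, -0.60, -0.26 and -0.51 in CWHM-823+tGro-b blood, and -0.21, 0.44 and 0.18 in PBS marrow. The AMD3100 arrays overlapped the marrow arrays, and the other blood arrays lay below them. Its differences were -0.77 ± 0.27 (adjusted p = 0.164) after G-CSF, where the block gives adjusted p = 0.02 and passes, -0.41 ± 0.27 (adjusted p = 0.428) after AMD3100 and -0.60 ± 0.27 (adjusted p = 0.87) after CWHM-823+tGro-b. Aurora A (Aurka), the kinase of the spindle poles, read -1.35, -1.96 and -1.02 in G-CSF blood, -1.56, -2.01 and -2.0 in AMD3100 blood, -2.04, -1.67 and -1.78 in CWHM-823+tGro-b blood, and -0.99, -0.71 and -0.17 in PBS marrow. All blood arrays lay below all marrow arrays, by -0.81 ± 0.30 (adjusted p = 0.184) after G-CSF, -1.23 ± 0.30 (adjusted p = 0.0705) after AMD3100 (adjusted p = 0.0239 blocked, which passes) and -1.20 ± 0.30 (adjusted p = 0.195) after CWHM-823+tGro-b. Nek2, a centrosome kinase, had a difference of 0.40 ± 0.36 (adjusted p = 0.569) after AMD3100.

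Among the spindle checkpoint kinases, Bub1b fell after AMD3100 (-1.59 ± 0.29, adjusted p = 0.0265) and differed by -1.26 ± 0.29 (adjusted p = 0.139) after CWHM-823+tGro-b, where it passes with the block (adjusted p = 0.0423). Bub1, which recruits the other checkpoint proteins to kinetochores, had levels of -1.46, -2.41 and -2.32 in G-CSF blood, -4.84, -2.30 and -4.04 in AMD3100 blood, -3.14, -2.64 and -3.29 in CWHM-823+tGro-b blood, and -1.92, -1.40 and -1.96 in PBS marrow. AMD3100 blood arrays 1 and 3 were the lowest of the 12, array 2 lay near the G-CSF arrays, and all 3 lay below marrow. Its differences were -1.96 ± 0.53 (adjusted p = 0.0894) after AMD3100 (adjusted p = 0.036 with the block, which passes), -0.30 ± 0.53 (adjusted p = 0.713) after G-CSF and -1.26 ± 0.53 (adjusted p = 0.768) after CWHM-823+tGro-b. Ttk (Mps1), the kinase at the head of the checkpoint, differed by -1.29 ± 0.56 (adjusted p = 0.228), -1.73 ± 0.56 (adjusted p = 0.136) and -1.61 ± 0.56 (adjusted p = 0.537) after G-CSF, AMD3100 and CWHM-823+tGro-b. With the slide block Ttk passed in all 3 (adjusted p = 0.0203, adjusted p = 0.00978 and adjusted p = 0.0314).

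In the chromosomal passenger complex, which corrects wrong attachments and guides cytokinesis, survivin fell after AMD3100. Survivin (Birc5) had levels of 2.45, 2.10 and 1.47 in G-CSF blood, 0.77, 0.77 and 0.40 in AMD3100 blood, 1.68, 1.32 and 0.97 in CWHM-823+tGro-b blood, and 2.19, 2.84 and 2.30 in PBS marrow. The AMD3100 arrays were the lowest of the 12, G-CSF array 1 lay within the marrow range and G-CSF array 2 just below it. Its differences were -1.80 ± 0.31 (adjusted p = 0.0179) after AMD3100, -0.44 ± 0.31 (adjusted p = 0.398) after G-CSF and -1.12 ± 0.31 (adjusted p = 0.273) after CWHM-823+tGro-b. Aurora B (Aurkb), the kinase of the complex, read -3.20, -3.58 and -2.28 in G-CSF blood, -5.57, -6.05 and -4.07 in AMD3100 blood, -5.58, -5.05 and -3.45 in CWHM-823+tGro-b blood, and -3.75, -2.41 and -1.05 in PBS marrow. Its marrow arrays were widely spread, and it was above background on 0 AMD3100 arrays, on 1 CWHM-823+tGro-b array and on every G-CSF and marrow array. It was at least 2.23-fold lower after AMD3100 than in marrow, which did not pass (adjusted p = 0.0838; adjusted p = 0.00436 with the slide block, which passes), and differed by -0.61 ± 0.74 (adjusted p = 0.599) after G-CSF. Its difference after CWHM-823+tGro-b did not pass (adjusted p = 0.46; adjusted p = 0.0189 blocked, which passes), and no size is given because 2 of those 3 arrays were not well above background. Borealin (Cdca8) differed by -1.39 ± 0.31 (adjusted p = 0.0507) after AMD3100, just outside the threshold (adjusted p = 0.0175 blocked), and by -0.52 ± 0.31 (adjusted p = 0.333) and -1.05 ± 0.31 (adjusted p = 0.334) after G-CSF and CWHM-823+tGro-b.

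None of the 3 tested kinetochore genes passed on the probe that stood for it, and their median log2 fold changes were -0.56 after G-CSF, -0.18 after AMD3100 and -0.16 after CWHM-823+tGro-b. Ndc80, the microtubule-binding subunit of the outer kinetochore, had levels of -1.51, -1.07 and -0.88 in G-CSF blood, -1.35, -0.86 and -0.36 in AMD3100 blood, -1.86, -0.93 and -0.02 in CWHM-823+tGro-b blood, and -1.53, -0.47 and -0.31 in PBS marrow. The groups overlapped throughout, and array 1 was the lowest of its group in all 4 groups. Its differences were -0.38 ± 0.47 (adjusted p = 0.601), -0.08 ± 0.47 (adjusted p = 0.939) and -0.16 ± 0.47 (adjusted p = 1) after G-CSF, AMD3100 and CWHM-823+tGro-b. Nuf2, its partner in the complex, differed by -1.07 ± 0.45 (adjusted p = 0.221), -0.18 ± 0.45 (adjusted p = 0.852) and 0.13 ± 0.45 (adjusted p = 1), and the kinetochore motor Cenpe by -0.56 ± 0.30 (adjusted p = 0.298), -0.60 ± 0.30 (adjusted p = 0.303) and -0.61 ± 0.30 (adjusted p = 0.926), in the same order. The intervals for AMD3100 run from -1.10 to 0.94 for Ndc80 and from -1.16 to 0.80 for Nuf2, so a fall of the size of Cdc20's lies outside them. The other tested Nuf2 probe gave -1.49 ± 0.60 (adjusted p = 0.209; 0.00378 blocked, which passes) after G-CSF, -0.16 ± 0.60 (adjusted p = 0.909) after AMD3100 and -1.04 ± 0.60 (adjusted p = 1; 0.045 blocked, which passes) after CWHM-823+tGro-b, where its sign is opposite to that of the brighter probe. On the brightest probes no kinetochore gene had an unadjusted p below 0.05 after AMD3100 or CWHM-823+tGro-b, and Nuf2 did after G-CSF.

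The 4 spindle motors had negative differences in each comparison with marrow and none passed, but 2 of them, Kif11 and Kif20a, passed with the slide block after G-CSF and after AMD3100. Kif11 (Eg5), the motor that pushes the spindle poles apart, had levels of -1.64, -2.24 and -2.59 in G-CSF blood, -1.89, -1.50 and -3.32 in AMD3100 blood, -1.78, -2.02 and -2.38 in CWHM-823+tGro-b blood, and -1.24, -0.59 and -1.15 in PBS marrow. Every blood array lay below every marrow array, by -1.16 ± 0.43 (adjusted p = 0.187) after G-CSF (adjusted p = 0.04 blocked), -1.24 ± 0.43 (adjusted p = 0.161) after AMD3100 (adjusted p = 0.0402 blocked) and -1.07 ± 0.43 (adjusted p = 0.736) after CWHM-823+tGro-b. Kif20a, a motor of the central spindle, differed by -0.86 ± 0.31 (adjusted p = 0.178), -0.96 ± 0.31 (adjusted p = 0.138) and -0.81 ± 0.31 (adjusted p = 0.677) after G-CSF, AMD3100 and CWHM-823+tGro-b. The chromosome motor Kif4 and the microtubule depolymerase Kif2c differed by -0.80 to -0.28 across the 3 comparisons.

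The spindle assembly genes held Nusap1 and Spag5, which fell in more than 1 comparison, and Hmmr, which did not pass and was highest in AMD3100 blood. Nusap1, which bundles microtubules near chromosomes, had levels of -0.43, -0.22 and -0.21 in G-CSF blood, -0.51, -0.55 and -0.66 in AMD3100 blood, -0.03, -0.14 and 0.05 in CWHM-823+tGro-b blood, and 0.56, 1.29 and 1.17 in PBS marrow. Replicates lay close together in each blood group, and all blood arrays lay below all marrow arrays. Nusap1 fell after AMD3100 (-1.58 ± 0.23, adjusted p = 0.0106) and G-CSF (-1.29 ± 0.23, adjusted p = 0.0158), and differed by -1.05 ± 0.23 (adjusted p = 0.118) after CWHM-823+tGro-b (adjusted p = 0.0373 blocked, which passes). Spag5 (astrin), which holds the spindle poles and attached kinetochores together, had levels of -1.65, -1.93 and -2.0 in G-CSF blood, -3.88, -2.13 and -2.99 in AMD3100 blood, -2.54, -2.87 and -2.59 in CWHM-823+tGro-b blood, and -0.45, -0.43 and -0.83 in PBS marrow. No blood array came near marrow, and G-CSF blood was the least low of the 3. It fell after AMD3100 (-2.43 ± 0.37, adjusted p = 0.0109) and after CWHM-823+tGro-b (-2.10 ± 0.37, adjusted p = 0.0319), and differed by -1.29 ± 0.37 (adjusted p = 0.105) after G-CSF (adjusted p = 0.0398 blocked, which passes).

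Aspm, a spindle pole protein of dividing progenitors, read -1.99, -3.73 and -2.44 in G-CSF blood, -3.70, -3.87 and -4.21 in AMD3100 blood, -1.66, -1.75 and -2.85 in CWHM-823+tGro-b blood, and -1.47, -1.02 and -1.68 in PBS marrow. AMD3100 blood was not well above background on any array, CWHM-823+tGro-b blood overlapped marrow, and G-CSF blood was widely spread. It was at least 4.51-fold lower after AMD3100 than in marrow (adjusted p = 0.0189), and differed by -1.33 ± 0.44 (adjusted p = 0.149) after G-CSF and -0.69 ± 0.44 (adjusted p = 1) after CWHM-823+tGro-b. Hmmr, the hyaluronan receptor RHAMM that also helps to anchor the spindle poles, was bright on every array and read 3.54, 4.06 and 3.83 in G-CSF blood, 4.91, 4.79 and 5.09 in AMD3100 blood, 3.94, 4.24 and 4.36 in CWHM-823+tGro-b blood, and 4.27, 4.31 and 4.82 in PBS marrow. AMD3100 blood had the highest mean, with 2 of its 3 arrays above the highest marrow array, and G-CSF blood had the lowest mean. Its differences from marrow did not pass: 0.46 ± 0.25 (adjusted p = 0.333) after AMD3100, -0.65 ± 0.25 (adjusted p = 0.189) after G-CSF (adjusted p = 0.0369 blocked, which passes) and -0.28 ± 0.25 (adjusted p = 1) after CWHM-823+tGro-b. Tpx2, which activates Aurora A on spindle microtubules, differed by -0.10 ± 0.36 (adjusted p = 0.904) after AMD3100 and by -0.67 ± 0.36 (adjusted p = 0.307) after G-CSF, where it passes with the block (adjusted p = 0.0492). After AMD3100 Ckap2, a microtubule stabiliser, differed by -0.87 ± 0.27 (adjusted p = 0.129) and passes with the block (adjusted p = 0.0216).

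Among genes of the central spindle and cytokinesis, all 6 lay below marrow on every AMD3100 array, and Prc1 and Depdc1b passed there. Prc1, which cross-links the central spindle, had levels of 0.12, -0.58 and -0.19 in G-CSF blood, -0.87, -0.84 and -1.11 in AMD3100 blood, -0.15, -0.33 and -0.75 in CWHM-823+tGro-b blood, and 0.52, 0.81 and 0.91 in PBS marrow. All blood arrays lay below all marrow arrays, and AMD3100 blood was the lowest group. It fell after AMD3100 (-1.69 ± 0.26, adjusted p = 0.011), and differed by -0.96 ± 0.26 (adjusted p = 0.0875) after G-CSF (adjusted p = 0.0265 blocked, which passes) and -1.16 ± 0.26 (adjusted p = 0.116) after CWHM-823+tGro-b. Kif23 (MKLP1), the motor of the centralspindlin complex, read -0.83, -1.59 and -0.66 in G-CSF blood, -0.79, -0.41 and -0.36 in AMD3100 blood, 0.26, -0.51 and -0.40 in CWHM-823+tGro-b blood, and 0.67, 0.30 and 0.19 in PBS marrow. Every blood array but CWHM-823+tGro-b array 1 lay below marrow, and G-CSF blood had the lowest mean. Kif23 fell after G-CSF (-1.41 ± 0.31, adjusted p = 0.0426), and differed by -0.91 ± 0.31 (adjusted p = 0.149) after AMD3100 and -0.60 ± 0.31 (adjusted p = 0.961) after CWHM-823+tGro-b. The scanner files give no position for this probe, and the other Kif23 probe was above background on 0 arrays. Depdc1b fell after AMD3100 (-2.08 ± 0.44, adjusted p = 0.0437). Anillin (Anln), a scaffold of the contractile ring, was at least 2.14-fold lower after AMD3100 than in marrow (adjusted p = 0.0662, or adjusted p = 0.00964 blocked). Because it met the filter only through marrow, where it was highest, these p-values are not read as support for a fall. Ect2, the activator of RhoA at the cleavage furrow, and Cep55, a protein of the midbody, differed by -1.21 ± 0.34 (adjusted p = 0.0977) and -1.03 ± 0.33 (adjusted p = 0.136) after AMD3100, and Ect2 passes with the block (adjusted p = 0.034).

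The 2 genes of chromosome proteins, both often used to mark dividing cells, differed in size. Topoisomerase IIα (Top2a), which untangles sister chromatids, had levels of -1.64, -2.20 and -2.57 in G-CSF blood, -3.36, -2.67 and -3.22 in AMD3100 blood, -2.07, -1.93 and -3.27 in CWHM-823+tGro-b blood, and -1.57, -1.13 and -1.30 in PBS marrow. The AMD3100 arrays, with CWHM-823+tGro-b array 3, were the lowest, and no blood array reached marrow. It fell after AMD3100 (-1.75 ± 0.37, adjusted p = 0.0449), and differed by -0.80 ± 0.37 (adjusted p = 0.257) after G-CSF and -1.09 ± 0.37 (adjusted p = 0.529) after CWHM-823+tGro-b. Ki-67 (Mki67), which coats mitotic chromosomes, read 0.97, 0.80 and 1.30 in G-CSF blood, 0.79, 0.48 and 1.12 in AMD3100 blood, 1.03, 0.76 and 1.39 in CWHM-823+tGro-b blood, and 1.13, 1.51 and 1.78 in PBS marrow. The AMD3100 arrays lay just below the marrow arrays and the other blood arrays overlapped them. Its differences were -0.67 ± 0.28 (adjusted p = 0.221) after AMD3100 (adjusted p = 0.0338 blocked, which passes), -0.45 ± 0.28 (adjusted p = 0.346) after G-CSF and -0.41 ± 0.28 (adjusted p = 1) after CWHM-823+tGro-b.

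Differences were also taken within each slide. For AMD3100, 29 of 39 members were below marrow on all 3 slides and 2 above on all 3, against 23.2% and 32.3% of all genes. For CWHM-823+tGro-b, 36 were below on all 3 slides and 0 above, against 20.5% and 15.2%. For G-CSF, 25 were below on all 3 and 0 above, against 41.3% and 23.7%, and for the 13 members that fell after AMD3100, Spag5 excepted, slide 1 gave the difference nearest to 0. The G-CSF difference on slide 1 was positive for Cdc20 (0.13), Bub1b (0.31), Birc5 (0.26) and Depdc1b (0.56), and negative for each of the 13 on slide 2. Members whose 3 arrays all lay below the 3 marrow arrays were 18 after G-CSF, 27 after AMD3100 and 26 after CWHM-823+tGro-b, against 14.5%, 11.9% and 5.47% of all genes. Those whose 3 arrays all lay above were 0, 1 and 0, against 11.2%, 14.7% and 4.31%.

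**Figure D5:**
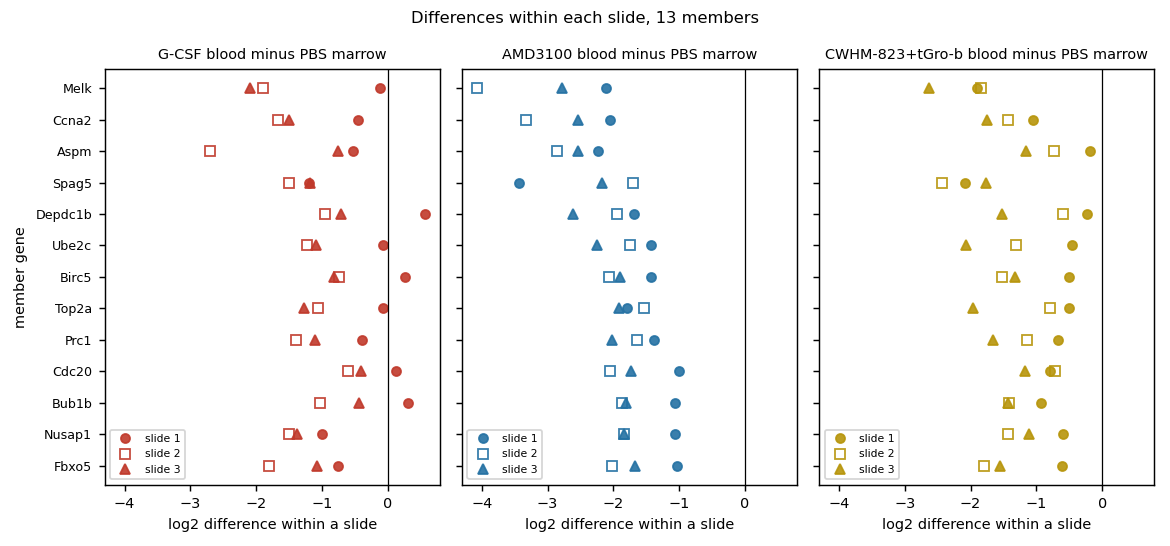
Log2 difference from the PBS marrow array of the same slide for the 13 members that fell after AMD3100, with G-CSF blood, AMD3100 blood and CWHM-823+tGro-b blood from left to right and 1 marker per slide. All AMD3100 and CWHM-823+tGro-b points lie below 0, and 4 G-CSF points of slide 1 lie above 0.

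Between blood groups, G-CSF blood held higher levels of several of these genes than AMD3100 blood. Of 39 members, 12 were higher and 3 lower, against 12.2% and 19.5% of all genes; with the slide block the counts were 17 and 6, against 22.3% and 40.3%. The members' median difference was 0.42, against -0.39 over all genes, and the 2 medians differed in sign. On all 3 slides 21 members were higher and 9 lower, against 30.1% and 48.7% of all genes, and the groups did not overlap for 15 and 3 members, against 19.4% and 28.5%. Higher were Ccna2 (1.44 ± 0.34, adjusted p = 0.0153), Cdc20 (1.30 ± 0.30, adjusted p = 0.0134), Birc5 (1.36 ± 0.31, adjusted p = 0.0133), Bub1b (1.20 ± 0.29, adjusted p = 0.0165), Depdc1b (1.71 ± 0.44, adjusted p = 0.0193), Bub1 (1.66 ± 0.53, adjusted p = 0.0361), Ccnb2, Ube2c, Cdca8 and Spag5, and Melk and Aurkb by at least 1.45-fold and 1.46-fold (adjusted p = 0.0269 and 0.0421). The members with no value given here differed by 0.75 to 1.14. For Bub1 the groups overlapped, and its differences on slides 1 to 3 were 3.38, -0.11 and 1.72. In AMD3100 blood Bub1 was above background on 1 of 3 arrays, and Bub1b and Spag5 on 2 of 3. The sizes for these members thus rest in part on signals not well above background. None of them passed in limma's test with normexp (adjusted p = 0.0903, 0.108 and 0.127). With normexp background correction 5 were higher and 3 lower; of the chromosomal passenger genes, all 3 of which were higher here, Birc5 still passed, while Aurkb (adjusted p = 0.131) and Cdca8 (adjusted p = 0.0859) did not. The lower ones were Hmmr (-1.12 ± 0.25, adjusted p = 0.0121), Cdk1 (-1.56 ± 0.48, adjusted p = 0.033) and the kinase Nek2 (-1.03 ± 0.36, adjusted p = 0.0462). Cdk1 reversed with the probe: probe 3 was higher in G-CSF blood (adjusted p = 0.0226), and probe 2 was so with the slide block (adjusted p = 0.0661; 0.00262 blocked), with no size given because 2 AMD3100 arrays on probe 3 and 1 on probe 2 were not well above background. Quantile normalization, which takes the difference over all genes to -0.10, gave 19 higher and 1 lower (Hmmr), and the authors' normalized values gave 15 and 1. Without G-CSF array 1 no member passed either way, and without G-CSF array 3, AMD3100 array 1 or AMD3100 array 2, 6 were higher and 1 was lower. Shares of all genes in these alternative fits are not given here.

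The 2 other blood comparisons had no member past the threshold in limma's test. For G-CSF against CWHM-823+tGro-b, 5 members were higher and 2 lower at an unadjusted p below 0.05, against 4.04% and 6.24% of all genes, and Aurkb, above background on 1 CWHM-823+tGro-b array, passed as higher with the slide block (adjusted p = 0.473; adjusted p = 0.0451 blocked). The median difference was 0.29, against -0.15 over all genes, of which 0.349% were higher and 0.257% lower, or 1.09% and 1.12% with the block. On all 3 slides 13 members were higher and 5 lower, against 21.3% and 35.3%, and the groups did not overlap for 6 higher and 3 lower members, against 6.32% and 7.0%. For CWHM-823+tGro-b against AMD3100, 6 members were higher and 2 lower at an unadjusted p below 0.05, against 9.36% and 10.5% of all genes. With the block Ccna2 (1.23 ± 0.34, adjusted p = 0.142), Aspm (at least 2.78-fold, adjusted p = 0.12) and Depdc1b (1.30 ± 0.44, adjusted p = 0.177) were higher and Hmmr lower (-0.74 ± 0.25, adjusted p = 0.169), at blocked adjusted p of 0.0296 to 0.0343. The median difference was 0.26, against -0.17 over all genes, of which 0.122% were higher and 0.0337% lower, or 8.13% and 8.43% with the block. On all 3 slides 14 members were higher and 5 lower, against 23.9% and 34.1%, and the groups did not overlap for 6 and 3 members, against 10.9% and 13.3%. Intervals in these comparisons are wide: for Mki67, G-CSF against CWHM-823+tGro-b gave -0.04 ± 0.28 (adjusted p = 0.96), with an interval of -0.64 to 0.57.

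Other genes of the pathway were counted from lists, which were chosen with earlier results of these data known. Over all genes tested, 0.909% were lower and 0.505% higher after AMD3100, 0.610% and 1.14% after G-CSF, and 0.0379% and 0.337% after CWHM-823+tGro-b. At an unadjusted p below 0.05 these shares were 9.94% and 8.63%, 12.1% and 7.81%, and 3.22% and 2.45%. With the slide block they were 7.59% and 5.49%, 12.3% and 7.69%, and 0.324% and 0.766%. Of 57 further mitosis genes, 47 were tested, and 6 fell after AMD3100, 1 after G-CSF and 2 after CWHM-823+tGro-b, while 0 rose, also at an unadjusted p below 0.05 (24, 11 and 3 fell with the slide block). The medians were -1.0, -0.63 and -0.72. After AMD3100 the smallest p-values were those of the motor Kif20b (-2.67 ± 0.37, adjusted p = 0.00637), the GTPase-activating protein gene Arhgap11a (-3.52 ± 0.51, adjusted p = 0.0095), cyclin F, Ccnf (-1.50 ± 0.22, adjusted p = 0.0108), and Kif22 (-2.57 ± 0.47, adjusted p = 0.0258). Ccnf also fell after G-CSF (-1.39 ± 0.22, adjusted p = 0.00799) and after CWHM-823+tGro-b (-1.20 ± 0.22, adjusted p = 0.0498), where Ckap2l fell too (-2.33 ± 0.44, adjusted p = 0.0498). None of 19 regulators of cell cycle transcription passed. At an unadjusted p below 0.05, 4 were lower after AMD3100 (21.1%). After G-CSF and CWHM-823+tGro-b 1 each was lower (5.26% each), for G-CSF below the share of all genes. With the slide block 4 were lower after AMD3100 (Foxm1, E2f4, Nfyc and Rbl2), 1 after G-CSF and 0 after CWHM-823+tGro-b. Foxm1, which activates these promoters, differed by -1.05 ± 0.25 after AMD3100 (adjusted p = 0.0603; 0.0137 blocked, which passes) and -0.89 ± 0.25 after G-CSF (adjusted p = 0.102; 0.0206 blocked, which passes). After CWHM-823+tGro-b it differed by -0.79 ± 0.25 (adjusted p = 0.423). The B-Myb gene Mybl2 differed by 0.08 ± 0.29 (adjusted p = 0.895) after AMD3100 and 0.29 ± 0.29 (adjusted p = 0.525) after G-CSF. Its difference after CWHM-823+tGro-b was -0.20 ± 0.29 and did not pass. Of 23 tested genes of G1/S and DNA replication, only the thymidine kinase gene Tk1 fell after AMD3100 (-2.41 ± 0.36, adjusted p = 0.0107), and the list's median was -0.40 after AMD3100, 0.15 after G-CSF and -0.18 after CWHM-823+tGro-b. At an unadjusted p below 0.05, 9 were lower (39.1%) and 1 higher (4.35%) after AMD3100. After G-CSF 1 was lower (4.35%), below the share of all genes, and after CWHM-823+tGro-b 2 were lower (8.7%). With the slide block, 5 were lower and 1 higher after AMD3100, 2 were lower after G-CSF and 0 passed after CWHM-823+tGro-b. Of 6 tested inhibitors of cyclin-dependent kinases, Cdkn1a (p21) and Cdkn2d (p19) rose after G-CSF (1.71 ± 0.31, adjusted p = 0.015, and 1.55 ± 0.33, adjusted p = 0.0387). Their differences were 0.36 and -0.71 after AMD3100 and 0.96 and -0.41 after CWHM-823+tGro-b, none of which passed; with the block Cdkn2d (adjusted p = 0.0409) and Cdkn1c (adjusted p = 0.0389) were lower and Cdkn2a higher (adjusted p = 0.0498) after AMD3100, and Cdkn1a was higher after CWHM-823+tGro-b (adjusted p = 0.0366).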

How the data were processed

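RNA of sorted LSK cells was hybridised to 12 Agilent mouse arrays with a single dye (Cy5). Per the file headers and the submitters' processing notes, the authors scanned the arrays with Agilent Feature Extraction 11.5.1.1, and the deposited processed signal is an intensity after background subtraction and detrending within each array, with no scaling between arrays. The authors also deposited, for part of the probes, a normalized intensity table (linear scale); its column medians are nearly equal, its tool and choice of probes are not given in the sources used here, and it served as an alternative. The files use mm9 positions, and give none for the probes that stood for Fbxo5, Ttk, Ndc80 and Kif23.

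From the processed intensity, log2 values minus each array's 75th percentile over 43020 spots that are not controls were computed, outlier spots (2453 values) were left out, and spots of a probe were averaged, giving 39429 probes. Each of 30954 genes was read by its brightest probe on average. Tested were the 23763 genes well above background on every array of 1 or more groups, with limma 3.58.1 in R 4.3.3 (lmFit and eBayes, all 4 groups in 1 fit, 8 residual and 3.8 prior degrees of freedom), and Benjamini-Hochberg adjustment ran over all tested genes, with 0.05 as the threshold; ± is the standard error and intervals are 95%. Every adjusted p in the text is limma's. No spot was saturated. A single-dye array gives no read depth, and the 3 arrays per group limit the precision.

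Samples of one number lay on 1 slide. Their deviations from the group means correlated at 0.26 to 0.616 in all 18 same-number pairs, against -0.446 to 0.0362 in the other 36, so the numbers pair the arrays, and each comparison was also fitted with slide as a blocking term. Alternatives changed the normalization, background correction, filter, probe choice, variance prior, arrays fitted and single arrays, and values on every array are given for members with the smallest p among those that passed or in a set of 15; other members are named with their log2 fold change. The members, lists and rules were chosen with earlier results of these data known. Besides the 5 LSK markers given, 1 further marker of that list is not reported here. The limma script was tested on simulated data. Figures were drawn with matplotlib 3.10.9.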

Additional observations from a re-analysis of the deposited data

How the results depend on the processing

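With the slide as a replicate block, the members that passed numbered 12 after G-CSF, 25 after AMD3100 and 6 after CWHM-823+tGro-b, against 2, 13 and 1 without it, and 23, 1 and 4 in G-CSF against AMD3100, G-CSF against CWHM-823+tGro-b and CWHM-823+tGro-b against AMD3100, against 15, 0 and 0. Quantile normalization together with the replicate block, chosen after seeing the data, gave 7, 27 and 6 against marrow and 25, 1 and 4 between blood groups; all 13 members that fell after AMD3100 passed under both blocked fits. The block lost no call among the members described on every array.

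After G-CSF the count was 1 under quantile normalization, normexp background correction, the authors' table, all probes kept however dim, or probes averaged per gene, and 0 when only the 2 groups compared were fitted. After AMD3100 it was 20 under quantile normalization. After CWHM-823+tGro-b it was 0 with no filter or with only probes above background on all arrays, and 2 when only the groups compared were fitted. G-CSF against AMD3100 gave 8 under normexp and 8 when only the groups compared were fitted. The cause of these shifts was not tested. Shares of all genes are given above for the slide block and not for the other settings. The counts alone therefore do not separate shifts among members from shifts over all genes. Leaving out 1 array gave 0 to 2 after G-CSF, 1 to 14 after AMD3100, 0 to 2 after CWHM-823+tGro-b, 0 to 17 in G-CSF against AMD3100, and 0 in the other 2 blood comparisons.

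Over 24 settings the members' median log2 fold change stayed between -0.80 and -0.53 after G-CSF, -1.43 and -0.83 after AMD3100, and -0.99 and -0.70 after CWHM-823+tGro-b. With the median over all genes in the same setting subtracted, it was -0.50 to -0.33 after G-CSF and -1.45 to -0.93 after AMD3100. After CWHM-823+tGro-b it was then -0.97 to -0.67. Of the 13 members that fell after AMD3100, 9 passed under normexp (not Aspm, Bub1b, Melk or Top2a), 11 of the 11 present in the authors' table, and 8 when only those groups were fitted.

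Some differences that had not passed turned sign. Cdk1 after AMD3100 was -1.82 with the mean of its probes (adjusted p = 0.109), against 0.78. Leaving out 1 array at a time, Ccnb2 after G-CSF ranged from -0.28 to 0.056, Aurkb after G-CSF from -1.29 to 0.067, Ndc80 after AMD3100 from -0.46 to 0.16, and Ndc80 after CWHM-823+tGro-b from -0.62 to 0.30. Signal over background limits Melk, Aurkb, Aspm and Anln, which were not well above background on any AMD3100 array, to bounds.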
